A study of Mus musculus with 26 samples.

Results

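The mitochondrial ribosomal protein genes were taken as the rows of the deposited expression table whose symbol is Mrpl or Mrps followed by a number and at most a letter. There were 77 such genes among the 24409 genes of the table, 48 of them Mrpl genes for proteins named for the large subunit and 29 Mrps genes for proteins named for the small subunit. Of these, 10 lie on chromosome 11 and 67 on other chromosomes. RNA-seq was done on mouse ES cells derived from C57BL/6J blastocysts, with 3 WT libraries and 2 libraries of ZFP57 KO cells, whose mutation is zygotic and homozygous and disrupts the coding exons for the KRAB domain and the zinc fingers of *Zfp57*. ZFP57 is a KRAB zinc finger protein that keeps DNA methylation at imprinting control regions. All 5 libraries came from male cells grown with LIF and inhibitors of Erk and Gsk3 (2i), at matched passage in WT and KO. The labels do not say how many embryos the KO libraries come from, so the p-values below measure the spread between these libraries. The labels say that new lines were karyotyped, and no karyotype was analysed here.

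Mitochondria make the core membrane proteins of the respiratory chain on their own ribosomes, the mitoribosomes. The RNA of these ribosomes is transcribed from mitochondrial DNA, whereas every mitoribosomal protein is encoded in the nucleus, made in the cytosol and imported. The genes are scattered over the chromosomes and are transcribed in nearly all cells, and their promoters are known for sites of general factors such as NRF1, GABPA of the ETS family and YY1.

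Levels are given in FPKM, which corrects the number of fragments for the length of the transcript and the size of the library, and changes as the log2 fold change of FPKM + 0.1 in KO over WT with its standard error (SE). A gene was called when the adjusted p of limma was below 0.05, adjusted over all 14617 tested genes, whose means over the 5 libraries reach 0.1 FPKM or more. *Zfp57* itself was at 75.94, 72.34 and 70.55 FPKM in WT and at 19.0 and 21.62 FPKM in KO, a change of -1.84 ± 0.064 (SE, adjusted p = 0.000235), so that the targeted gene was lower in both libraries labelled KO. How much of the level in KO comes from the disrupted exons cannot be read from the FPKM. Judged from the step between low values, a transcript of 1 kb gained 0.017 to 0.0197 FPKM with each fragment, so that even the lowest of the 77 genes rests on many fragments. The 8 ES cell markers summed to 804.71 to 856.97 FPKM in WT and to 886.39 and 958.84 FPKM in KO, and none of them was below 25.68 FPKM. The 6 feeder fibroblast markers were all at or below 0.25 FPKM, with *Col3a1* at 0 in every library. The 5 trophoblast markers summed to 0.78 to 1.29 FPKM in WT and to 2.99 and 3.35 FPKM in KO, the 5 primitive endoderm markers to 0.47 to 0.49 FPKM and to 1.21 and 0.72 FPKM, and the 4 markers of neural or mesodermal derivatives to 0.69 to 1.07 FPKM and to 1.95 and 1.66 FPKM. Single markers carried most of these differences, with *Eomes* at a mean of 0.497 FPKM in WT and 2.26 FPKM in KO, *Sox7* at 0.117 and 0.69 FPKM, *Sox1* at 0.0867 and 0.57 FPKM and *T* at 0.367 and 0.845 FPKM, while *Gata4* was at 0.257 and 0.16 FPKM. These 5 genes were chosen after their values were seen. The part of the markers in the results on the ribosomal protein genes was not tested. The samples are bulk cultures, in which fewer cells of a type and less RNA per cell cannot be told apart.

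All 77 genes were expressed well above the minimum, from 2.73 FPKM for *Mrpl57* to 49.3 FPKM for *Mrpl18* as means over the 5 libraries, with a median of 13.6 FPKM. In KO cells, 21 of the 77 genes were lower (27.3%) and 6 were higher (7.79%), while 22.3% of all tested genes were lower and 18.8% were higher. The split by chromosome was uneven. All 10 genes on chromosome 11 were lower, with a median log2 fold change of -0.53. Of the 67 genes elsewhere, 11 were lower (16.4%), 6 were higher (8.96%) and 50 were not called, with a median log2 fold change of 0.02. Among all tested genes of chromosome 11, 67.4% were lower and 2.7% were higher. Outside chromosome 11 the shares were 18.1% and 20.3%, and among genes outside chromosome 11 with a mean FPKM in the range of the 77 genes they were 16.6% and 25.7%. The share of lower genes among the members elsewhere was therefore close to that background, and the share of higher genes was below it. With the libraries scaled on the genes outside chromosome 11, the members elsewhere split into 13 lower and 3 higher, in place of 11 and 6. Their median log2 fold change was then -0.045. The shares of all tested genes called under this scaling were not counted, so the split has no background beside it.

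**Figure D1:**
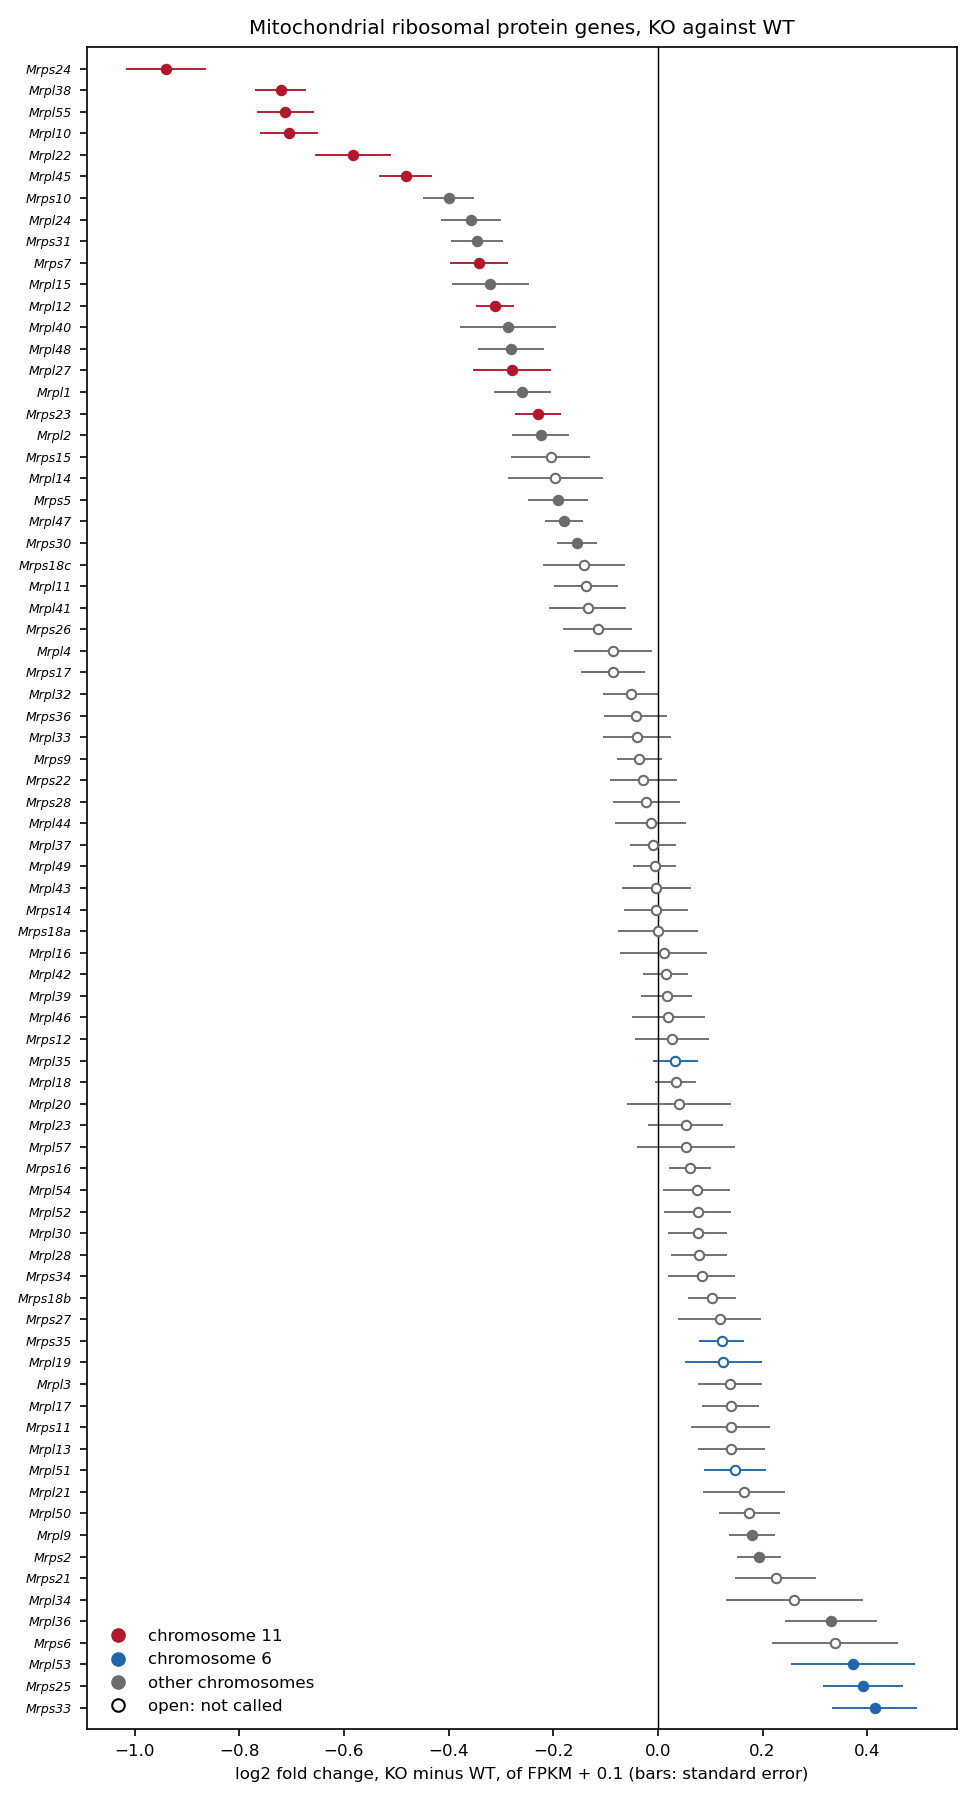
The log2 fold change in KO over WT of all 77 genes, ordered from the lowest to the highest, with bars for 1 standard error on the horizontal axis. Filled points were called at an adjusted p below 0.05. The 10 genes of chromosome 11 (red) lie between -0.94 and -0.23, and the 3 highest points, *Mrpl53*, *Mrps25* and *Mrps33*, lie on chromosome 6 (blue).

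On chromosome 11, *Mrps24* had the largest fall of all 77 genes. It encodes a small subunit protein related to bacterial S3, at the entry of the mRNA channel. Its level was 21.37, 21.43 and 23.24 FPKM in WT and 12.32 and 10.58 FPKM in KO, so that both KO libraries were far below the lowest WT library. The change was -0.94 ± 0.076 (SE, adjusted p = 0.00058), and the KO mean was 52.0% of the WT mean. The other small subunit genes of the chromosome fell less. *Mrps7*, for a protein of the small subunit head, was at 15.42, 15.58 and 16.22 FPKM in WT and at 12.98 and 11.83 FPKM in KO (-0.34 ± 0.055, adjusted p = 0.00471). *Mrps23* was at 10.75, 10.54 and 10.61 FPKM in WT and at 9.16 and 8.96 FPKM in KO (-0.23 ± 0.044, adjusted p = 0.00887), the smallest fall on the chromosome. The libraries of the groups did not overlap for either gene.

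The 7 large subunit genes of chromosome 11 fell by between 0.28 and 0.72 on the log2 scale. *Mrpl38*, for a protein of the central protuberance, was at 19.49, 18.54 and 19.63 FPKM in WT and at 11.31 and 11.93 FPKM in KO (-0.72 ± 0.049, adjusted p = 0.000408). *Mrpl55* was at 22.88, 22.08 and 24.39 FPKM in WT and at 14.35 and 13.78 FPKM in KO (-0.71 ± 0.054, adjusted p = 0.00054). For both genes the KO mean was 60.5% and 60.8% of the WT mean. *Mrpl10* and *Mrpl12* together encode the stalk of the large subunit, where translation factors dock. *Mrpl10* was at 14.12, 13.36 and 14.65 FPKM in WT and at 8.77 and 8.38 FPKM in KO (-0.70 ± 0.056, adjusted p = 0.000566). *Mrpl12* was at 46.08, 45.78 and 46.19 FPKM in WT and at 37.98 and 36.19 FPKM in KO (-0.31 ± 0.037, adjusted p = 0.00166). The KO mean was thus 61.1% of WT for the base of the stalk and 80.6% for the protein it carries. A test of the difference between these genes was not run.

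*Mrpl22* and *Mrpl45* encode proteins around the exit of the tunnel through which the new chain leaves, and *Mrpl45* ties the ribosome to the inner membrane. *Mrpl22* was at 16.54, 14.36 and 16.3 FPKM in WT and at 10.77 and 10.14 FPKM in KO (-0.58 ± 0.073, adjusted p = 0.00197). *Mrpl45* was at 27.9, 26.32 and 28.02 FPKM in WT and at 20.24 and 18.96 FPKM in KO (-0.48 ± 0.05, adjusted p = 0.00106). All KO values lay below all WT values for both. *Mrpl27*, for a protein next to the peptidyl transferase centre, was the lowest expressed gene of the group, at 8.98, 7.88 and 8.67 FPKM in WT and at 7.28 and 6.7 FPKM in KO (-0.28 ± 0.075, adjusted p = 0.0271). Single libraries decided its call, as the adjusted p was 0.0775 without WT 1, 0.0852 without WT 3 and 0.138 without KO 2. With the replicate number as a block it was 0.0745, and that of *Mrps23* was 0.0813. The other 8 genes of the chromosome were called with each library left out and with the block. *Mrpl27* is 1 of 4 genes of the 77, with *Mrpl23*, *Mrpl48* and *Mrps36*, that have a RefSeq pseudogene named after them. None of these pseudogenes has a row in the table, and reads shared with them cannot be told apart here.

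**Figure D2:**
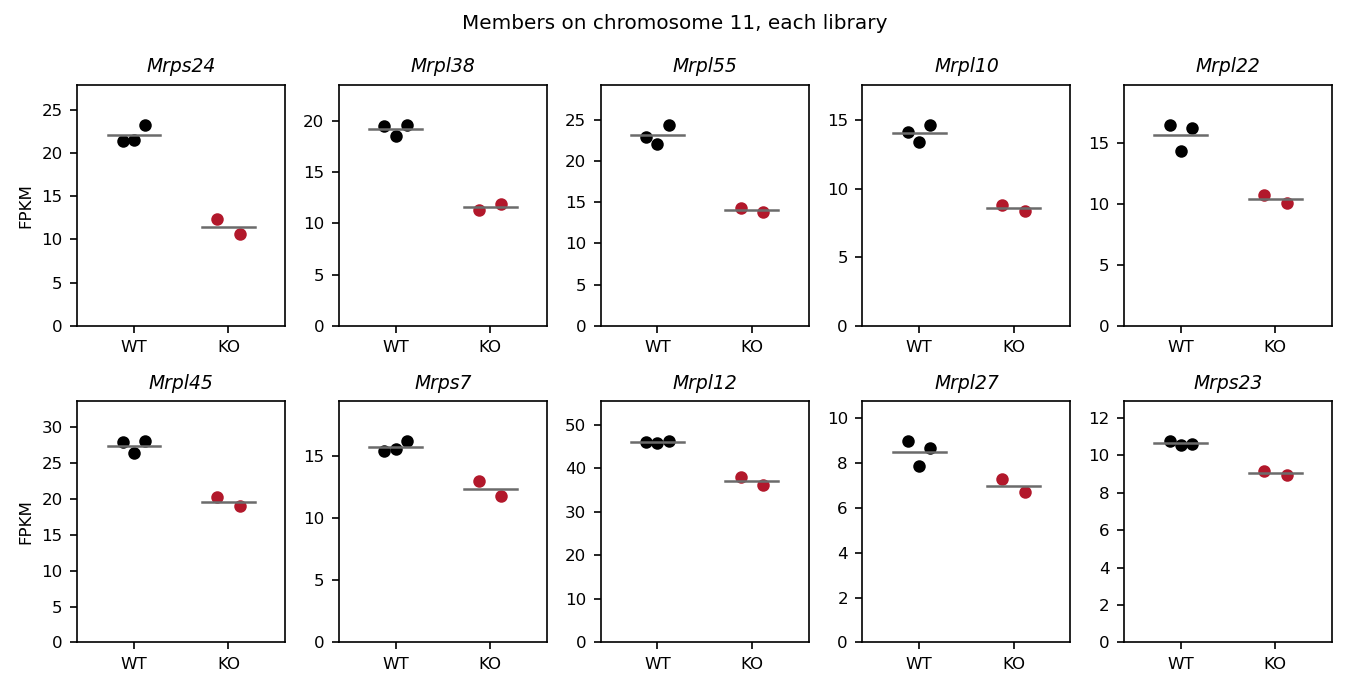
FPKM of the 10 genes on chromosome 11 in each of the 3 WT (black) and 2 KO (red) libraries, with the group mean as a line and a vertical axis that starts at 0 in each panel. The KO points lie below all WT points in every panel, from *Mrps24* with a KO mean at 52.0% of WT to *Mrps23* at 85.2%.

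In KO 1 the median difference of the 10 genes from the WT mean, less that of the 67 other genes, was -0.50 on the log2 scale, and in KO 2 it was -0.59. The WT libraries were at 0.01, -0.04 and 0.02 on the same measure, with a pooled SD of 0.045. Both KO libraries were thus lower by many times the spread. The fall was shared by the genes around them. The other 1214 tested genes of chromosome 11 had a median log2 fold change of -0.47, and both KO libraries lay below all WT libraries in 76.2% of the genes of the chromosome, the 10 ribosomal protein genes included, and above all of them in 5.07%. The 10 genes are spread along the chromosome from *Mrps24* at chr11:5703982-5707701 to *Mrpl12* at chr11:120484637-120488754 (GRCm38). Within 1 Mb of each of them, 23 to 64 other genes were tested, and their median log2 fold change ranged from -0.56 around *Mrpl27* to -0.44 around *Mrpl12*. Around *Mrps24*, all 45 neighbours had a negative log2 fold change and 35 were called lower.

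To compare each gene with its own chromosome, the median change of each chromosome was subtracted and the fit repeated. *Mrps24* then still stood at -0.46 (adjusted p = 0.00501), *Mrpl38* at -0.24 (adjusted p = 0.00812), *Mrpl55* at -0.23 (adjusted p = 0.00911) and *Mrpl10* at -0.22 (adjusted p = 0.0115), so these 4 fell by more than the median of the chromosome. *Mrpl22* at -0.10 (adjusted p = 0.197) and *Mrpl45* at -0.002 (adjusted p = 0.978) were not called. *Mrps23* at 0.25 (adjusted p = 0.0102), *Mrpl27* at 0.20 (adjusted p = 0.0464) and *Mrpl12* at 0.17 (adjusted p = 0.026) were called higher, which means a smaller fall than the chromosome's median, and *Mrps7* at 0.14 (adjusted p = 0.102) was not called. How many other genes of the chromosome were called in this fit was not counted, so these calls have no background share beside them. The 10 genes thus lay on both sides of the chromosome's median, with 175 of the 1224 tested genes of the chromosome lower than *Mrps24* and 947 lower than *Mrps23*.

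**Figure D3:**
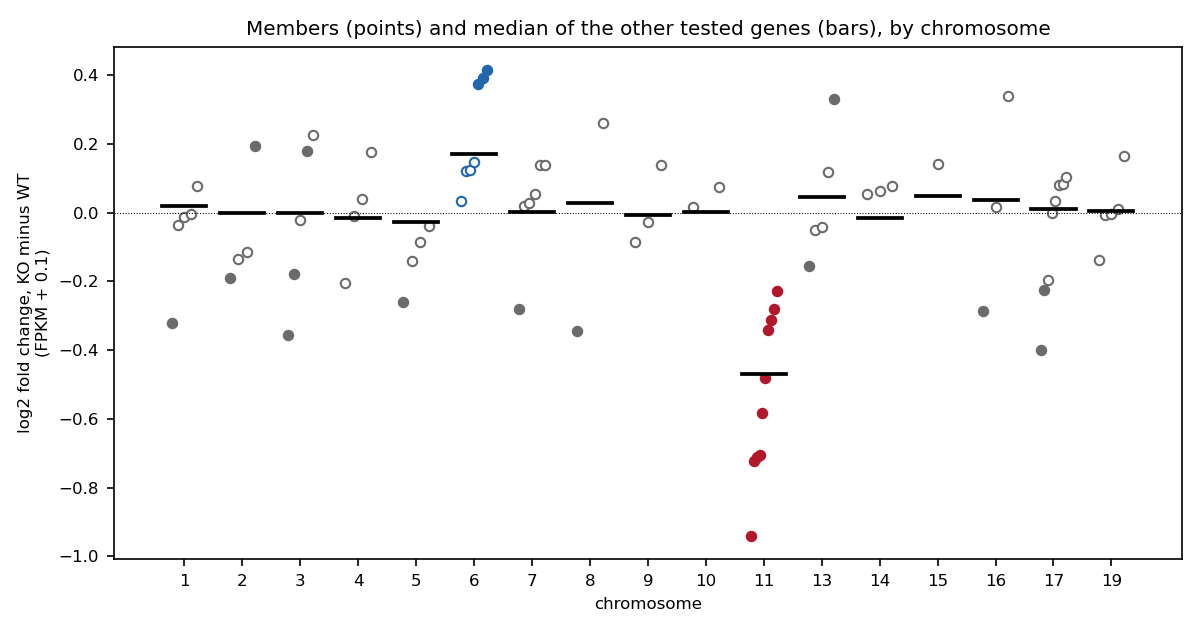
The log2 fold change in KO over WT of the 77 genes (points, filled where called) by chromosome, with a bar for the median of the other tested genes of that chromosome. The points of chromosome 11 lie on both sides of a bar at -0.47, those of chromosome 6 on both sides of a bar at 0.17, and the other bars lie between -0.03 and 0.05.

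As the genes of chromosome 11 moved together, their promoters are shown beside them. RefSeq promoter windows of GRCm38.p6, 250 bases before to 50 bases after a gene start, were at hand for 68 of the 77 genes. They were searched on both strands for the NRF1 core CGCATGCG, the ETS core CCGGAAG, the YY1 core AAGATGGC and TGCCGC, the hexanucleotide of ZFP57 peaks, none of which contains another. The stretches below run from 100 bases before to 30 after the start, 5′ to 3′ on the strand of the gene, with matches in capitals, and of the first window in the table where a gene has several. They were picked to show a promoter with 2 of the cores (*Mrpl22*), with the YY1 core (*Mrps7*), with the ETS core (*Mrpl27*), with the hexanucleotide beside an ETS core (*Mrps23*), and the gene with the largest fall (*Mrps24*), whose YY1 core begins 36 bases after the start and so lies beyond the stretch shown, which holds no match.
*Mrpl22* (chr11:58171564-58171693, plus strand): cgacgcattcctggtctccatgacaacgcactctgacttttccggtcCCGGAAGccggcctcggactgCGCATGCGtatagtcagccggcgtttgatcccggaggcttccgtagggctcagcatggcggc
*Mrps7* (chr11:115604040-115604169, plus strand): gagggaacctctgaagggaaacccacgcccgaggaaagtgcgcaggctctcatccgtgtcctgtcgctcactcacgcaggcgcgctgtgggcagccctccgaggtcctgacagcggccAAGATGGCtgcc
*Mrpl27* (chr11:94653691-94653820, plus strand): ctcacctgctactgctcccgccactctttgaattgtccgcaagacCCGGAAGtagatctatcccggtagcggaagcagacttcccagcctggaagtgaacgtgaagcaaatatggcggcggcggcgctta
*Mrps23* (chr11:88204288-88204417, plus strand): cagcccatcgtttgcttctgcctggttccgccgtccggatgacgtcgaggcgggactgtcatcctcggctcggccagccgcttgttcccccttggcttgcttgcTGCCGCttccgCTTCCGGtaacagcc
*Mrps24* (chr11:5707672-5707801, minus strand): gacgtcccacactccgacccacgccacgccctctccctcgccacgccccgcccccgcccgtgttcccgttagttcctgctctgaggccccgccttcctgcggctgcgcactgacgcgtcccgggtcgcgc

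In *Mrpl22* the capitals are an ETS core followed by an NRF1 core, in *Mrps23* the hexanucleotide followed by an ETS core on the other strand. Of the 68 genes, the ETS core was found in 25, the YY1 core in 12, the NRF1 core in 7 and the hexanucleotide in 10. Of their 74 windows, 33.8%, 16.2%, 9.46% and 16.2% held these motifs in the same order. In all 32851 promoter windows of the table the shares were 8.86%, 2.75%, 1.87% and 11.6%, and in the windows of tested genes 16.8%, 4.19%, 3.75% and 18.9%. At least 1 of the ETS, YY1 and NRF1 cores was found in 37 genes (54.4%), against 26.5% of the 10971 tested genes with a window. On chromosome 11 the ETS core was found in 3 of 9 genes, the YY1 core in 2, the NRF1 core in 2 and the hexanucleotide in 1. The matches are given as a description of the letters in these windows.

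Outside chromosome 11, the largest falls were those of *Mrps10*, *Mrpl24* and *Mrps31*. *Mrps10*, on chromosome 17, encodes a small subunit head protein and was at 21.17, 20.54 and 21.41 FPKM in WT and at 16.5 and 15.35 FPKM in KO (-0.40 ± 0.048, adjusted p = 0.00166). *Mrpl24*, on chromosome 3, was at 29.13, 28.16 and 30.93 FPKM in WT and at 21.99 and 23.9 FPKM in KO (-0.36 ± 0.058, adjusted p = 0.00481). *Mrps31*, on chromosome 8, was at 14.32, 13.74 and 13.37 FPKM in WT and at 11.06 and 10.64 FPKM in KO (-0.35 ± 0.05, adjusted p = 0.00308). In all of them both KO libraries were below every WT library, and these 3 genes and the chromosome 11 genes *Mrps24*, *Mrpl38*, *Mrpl55* and *Mrpl10* were the 7 of the 27 called genes that were called the same way in all 15 alternative fits. Of the exonic bases of *Mrpl24*, 37.4% also belong to *Rrnad1* on the opposite strand. Whether the counting used strand is not given in the sources used here, so reads of both genes may not be separated.

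The other 8 lower genes elsewhere fell by less. *Mrpl15* changed by -0.32 (adjusted p = 0.0164), *Mrpl40* by -0.29 (adjusted p = 0.0482), *Mrpl48* by -0.28 (adjusted p = 0.0147), *Mrpl1*, for the protein of the mobile L1 stalk, by -0.26 (adjusted p = 0.0115), and *Mrpl2*, for a core protein near the peptidyl transferase centre, by -0.22 (adjusted p = 0.0208). *Mrpl47*, for a protein at the tunnel exit, changed by -0.18 (adjusted p = 0.0104). The remaining members called lower, *Mrps5* at -0.19 (adjusted p = 0.0377) and *Mrps30* at -0.16 (adjusted p = 0.02), fall outside the rule for named genes and are named for completeness. Despite its symbol, *Mrps30* encodes a protein of the large subunit. Single libraries decided several of these calls. Without KO 2, *Mrpl15* (adjusted p = 0.0561), *Mrpl40* (0.209), *Mrpl48* (0.0721), *Mrpl1* (0.0561) and *Mrpl2* (0.106) were not called, and the number of called members elsewhere was 8 (5 lower and 3 higher) in place of 17. It was 11 without WT 2. Without WT 1, WT 2 or WT 3 the adjusted p of *Mrpl40* was 0.129, 0.0662 and 0.124, without WT 1 or WT 2 that of *Mrpl2* was 0.063 and 0.0692, without WT 3 that of *Mrpl15* was 0.0593, and without KO 1 that of *Mrpl48* was 0.0548. *Mrps30* was not called without WT 1, WT 2, WT 3 or KO 2, and *Mrps5* not without WT 1, WT 2 or KO 2.

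The 3 highest log2 fold changes were all on chromosome 6. *Mrps33*, for a small subunit protein without a bacterial relative, was at 5.06, 5.7 and 5.55 FPKM in WT and at 7.72 and 6.84 FPKM in KO (0.41 ± 0.082, adjusted p = 0.00962). *Mrps25* was at 3.26, 3.18 and 3.52 FPKM in WT and at 4.26 and 4.51 FPKM in KO (0.39 ± 0.077, adjusted p = 0.00942). *Mrpl53* was at 5.79, 6.13 and 7.38 FPKM in WT and at 7.74 and 8.94 FPKM in KO (0.37 ± 0.118, adjusted p = 0.0461). The KO libraries were above all WT libraries for each, with WT 3 of *Mrpl53* close to KO 1. The other 4 genes of the chromosome, *Mrpl35*, *Mrps35*, *Mrpl19* and *Mrpl51*, had log2 fold changes of 0.03 to 0.15 and were not called, and *Mrps35* and *Mrpl51* of these fall outside the rule for named genes. That all 7 genes of chromosome 6 were above 0 was noticed after their values were seen. The other 672 tested genes of the chromosome had a median of 0.17, and 37.4% of them were called higher. With the chromosome medians subtracted, *Mrps33* at 0.25 (adjusted p = 0.164), *Mrps25* at 0.22 (adjusted p = 0.063) and *Mrpl53* at 0.20 (adjusted p = 0.177) were not called. Without KO 1 the adjusted p was 0.0533 for *Mrps33* and 0.0695 for *Mrpl53*, and without KO 2 it was 0.056 for *Mrps25* and 0.235 for *Mrpl53*. Without WT 1 or WT 2 it was 0.116 and 0.131 for *Mrpl53*. Of the exonic bases of *Mrps25*, 58.4% also belong to *Nr2c2* on the opposite strand.

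The other higher genes were *Mrpl36* on chromosome 13, *Mrps2* on chromosome 2 and *Mrpl9* on chromosome 3. *Mrpl36* was at 5.91, 5.23 and 5.49 FPKM in WT and at 6.48 and 7.53 FPKM in KO (0.33 ± 0.088, adjusted p = 0.0267). *Mrps2*, an abundant small subunit gene, was at 33.58, 35.27 and 35.91 FPKM in WT and at 39.6 and 40.29 FPKM in KO (0.19 ± 0.042, adjusted p = 0.0134). *Mrpl9*, which falls outside the rule for named genes, changed by 0.18 ± 0.044 (adjusted p = 0.0203). The groups did not overlap for any of them. Without KO 2 the adjusted p was 0.134 for *Mrpl36* and 0.0657 for *Mrps2*, and without WT 2 and WT 3 that of *Mrpl36* was 0.0827 and 0.0784. *Mrpl9* was not called without WT 2, WT 3, KO 1 or KO 2. *Mrps6* at 0.34 ± 0.12 (adjusted p = 0.0654), *Mrpl34* at 0.26 ± 0.131 (adjusted p = 0.16) and *Mrps21* at 0.23 ± 0.077 (adjusted p = 0.0587) were not called, with larger estimates and standard errors than *Mrps2* and *Mrpl9*. For *Mrps6* the KO libraries differed, at 7.67 and 10.01 FPKM, and without KO 1 it was called (adjusted p = 0.0164). *Slc5a3* shares 18.6% of the exonic bases of *Mrps6* on the same strand. *Mrpl34* was called without KO 2 (adjusted p = 0.0491) and *Mrps21* without WT 1 (adjusted p = 0.0429).

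Of the 67 genes elsewhere, 15 had both KO libraries below all WT libraries, 17 had both above, and 35 overlapped. Over all genes outside chromosome 11 the KO libraries were below in 29.2% and above in 32.6%. The 3 most abundant genes were in the overlapping group. *Mrpl18* was at 49.29, 49.0 and 48.27 FPKM in WT and at 51.49 and 48.6 FPKM in KO (0.03 ± 0.039, adjusted p = 0.523). *Mrpl42* was at 48.18, 45.96 and 45.85 FPKM in WT and at 48.38 and 45.91 FPKM in KO (0.02 ± 0.043, adjusted p = 0.81), and *Mrpl35* had an adjusted p of 0.574. At the low end, *Mrpl57* was at 2.79, 2.48 and 2.8 FPKM in WT and at 2.91 and 2.68 FPKM in KO (0.05 ± 0.093, adjusted p = 0.674), and *Mrpl41* and *Mrpl19* had adjusted p of 0.194 and 0.222. These levels are per length, so they can be ranked between genes. *Mrpl18*, *Mrpl42*, *Mrpl35* and *Mrpl12* were the 4 highest by mean, and *Mrpl12* was the only called gene among them.

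The 3 genes related to bacterial S18 gave no call. *Mrps18a* was at 11.36, 10.45 and 10.64 FPKM in WT and at 11.66 and 10.02 FPKM in KO, and its protein sits in the large subunit. *Mrps18b* was at 35.56, 37.4 and 36.85 FPKM in WT and at 40.74 and 38.0 FPKM in KO (0.10 ± 0.046, adjusted p = 0.119). *Mrps18c* was at 25.23, 28.07 and 24.23 FPKM in WT and at 24.78 and 22.05 FPKM in KO (-0.14 ± 0.079, adjusted p = 0.201). Only in *Mrps18b* did the groups stand apart, with KO above WT.

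Summed over the 77 genes, the level was 1272.6, 1259.7 and 1276.3 FPKM in WT and 1215.4 and 1196.1 FPKM in KO, or 95.0% of the WT mean. The 10 genes of chromosome 11 summed to 203.5, 195.9 and 207.9 FPKM in WT and to 145.2 and 137.5 FPKM in KO, or 69.8%. The 67 others summed to 1069.1, 1063.9 and 1068.3 FPKM in WT and to 1070.2 and 1058.6 FPKM in KO, or 99.7%. The difference in the sum was thus carried by chromosome 11, which gave 15.9% ± 0.374 of it (SD, n = 3) in WT but 11.7% ± 0.319 of it (SD, n = 2) in KO. By symbol, the 29 Mrps genes had a KO mean of 96.7% of WT with 7 lower and 3 higher, and the 48 Mrpl genes had 94.0% with 14 lower and 3 higher. These are not exact values for the subunits, as the Mrps genes include *Mrps18a* and *Mrps30*, whose proteins belong to the large subunit. Off chromosome 11, 4 of 26 Mrps genes were lower and 3 higher, and 7 of 41 Mrpl genes were lower and 3 higher. Over all tested genes 22.3% were lower and 18.8% higher, and off chromosome 11 18.1% and 20.3%.

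Other genes of mitochondrial translation were followed in lists of known proteins. Across 5 of these lists 99 genes were tested, 10 of them on chromosome 11, of which 9 were lower and none was higher, with a median log2 fold change of -0.64. Of the 89 elsewhere, 11 were lower (12.4%) and 7 were higher (7.87%), with a median of -0.01. Over all tested genes 67.4% were lower on chromosome 11, and 18.1% were lower and 20.3% higher outside it. Of the 6 further mitoribosome proteins, 4 were lower and none was higher, but only 1 was called without WT 1, WT 3, KO 1 or KO 2, and 2 without WT 2. *Ict1*, on chromosome 11, for a release factor that is built into the large subunit, was at 30.09, 29.81 and 31.11 FPKM in WT and at 19.5 and 17.5 FPKM in KO (-0.71 ± 0.056, adjusted p = 0.000561). *Gadd45gip1* changed by -0.21 (adjusted p = 0.0462), and *Ptcd3* at 0.12 (adjusted p = 0.0611) and *Chchd1* at 0.07 (adjusted p = 0.337) were not called. The call of *Gadd45gip1* rested on single libraries, with an adjusted p of 0.117, 0.129, 0.112 and 0.179 without WT 1, WT 3, KO 1 and KO 2.

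Of 30 genes for assembly and rRNA modification, 6 were lower and 1 was higher, where 22.3% of all tested genes were lower and 18.8% higher. The 3 on chromosome 11 were all lower, among them *Mrm1*, for a methyltransferase of the large rRNA (-0.87 ± 0.112, adjusted p = 0.00209), and *Eral1*, for a chaperone of the small rRNA (-0.68 ± 0.054, adjusted p = 0.000569). At the other end *Mpv17l2* at 0.27 (adjusted p = 0.224) and *Noa1* at 0.24 (adjusted p = 0.0759) were not called, though without KO 2 the adjusted p was 0.0391 and 0.0418. Of 19 translation factors and insertion proteins, 4 were lower and 2 higher, but without WT 1, WT 3, KO 1 or KO 2 only 2 of them were called. The initiation factor gene *Mtif2* (-0.61 ± 0.076, adjusted p = 0.00188) and *Taco1*, for an activator of cytochrome oxidase subunit translation (-0.54 ± 0.131, adjusted p = 0.0193), are on chromosome 11. The elongation factor gene *Guf1* (0.27 ± 0.072, adjusted p = 0.0286) and *Pdf*, for the peptide deformylase (0.26 ± 0.066, adjusted p = 0.0223), were higher. *Taco1* was not called without WT 1, WT 3 or KO 2 (adjusted p = 0.0574, 0.067 and 0.0705), *Guf1* not without WT 1, WT 2, KO 1 or KO 2 (0.0753, 0.0818, 0.114 and 0.0654), and *Pdf* not without WT 1, WT 3, KO 1 or KO 2 (0.0578, 0.0639, 0.089 and 0.0724).

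None of the 22 genes for tRNA charging is on chromosome 11, and 2 were lower and 3 higher, where 18.1% of all tested genes outside chromosome 11 were lower and 20.3% higher. Without WT 3 or KO 2, 3 of the 22 were called in place of 5. *Aars2*, for the alanyl-tRNA synthetase, changed by 0.41 ± 0.071 (adjusted p = 0.0061). *Gars*, whose product charges tRNA in the cytosol as well and which lies on chromosome 6, changed by 0.45 ± 0.044 (adjusted p = 0.000882), and *Vars2* at -0.24 (adjusted p = 0.159) was not called. Of 22 genes for upkeep and transcription of mitochondrial DNA, 4 were lower and 1 higher, beside 22.3% and 18.8% of all tested genes, and without WT 2, WT 3, KO 1 or KO 2, 3 were called, all lower. *Tefm*, for the elongation factor of mitochondrial transcription, had the largest fall of all these lists. It was at 21.42, 22.75 and 24.27 FPKM in WT and at 10.66 and 9.42 FPKM in KO (-1.18 ± 0.075, adjusted p = 0.000373). *Polg2*, for the accessory subunit of the DNA polymerase, changed by -0.75 ± 0.159 (adjusted p = 0.0122, and 0.0745 without KO 2). Both are on chromosome 11. *Trmt10c*, for a subunit of mitochondrial RNase P, changed by 0.15 (adjusted p = 0.0314) but was not called when any library was left out (adjusted p from 0.0593 to 0.105), and *Gtpbp3* at 0.23 (adjusted p = 0.141) was not called. None of the 28 listed genes encoded in mitochondrial DNA was found by its symbol in the expression table, so they were not analysed here.

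Of 14 tested regulators of nuclear genes for mitochondria, 1 was lower and 5 were higher, with a median log2 fold change of 0.11, and none lies on chromosome 11, outside which 18.1% of all tested genes were lower and 20.3% higher. *Nrf1* at 0.02 (adjusted p = 0.801), *Gabpa* at 0.00 (adjusted p = 0.998) and *Yy1* at 0.10 (adjusted p = 0.159), for the factors whose cores were searched above, were not called. These 3 fall outside the rule for named genes, as does *Gabpb2* of the same list, which was higher (0.35 ± 0.058, adjusted p = 0.00525). *Myc* (1.15 ± 0.216, adjusted p = 0.00788, and 0.0646 without KO 2) and *Tfeb*, for a regulator of lysosome genes (1.10 ± 0.06, adjusted p = 0.000328), rose the most. *Pprc1*, for a coactivator related to PGC-1, changed by -0.25 ± 0.04 (adjusted p = 0.00461), and *Gabpb1* at -0.19 (adjusted p = 0.059) was not called, but was without KO 1 (adjusted p = 0.0348).

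**Figure D4:**
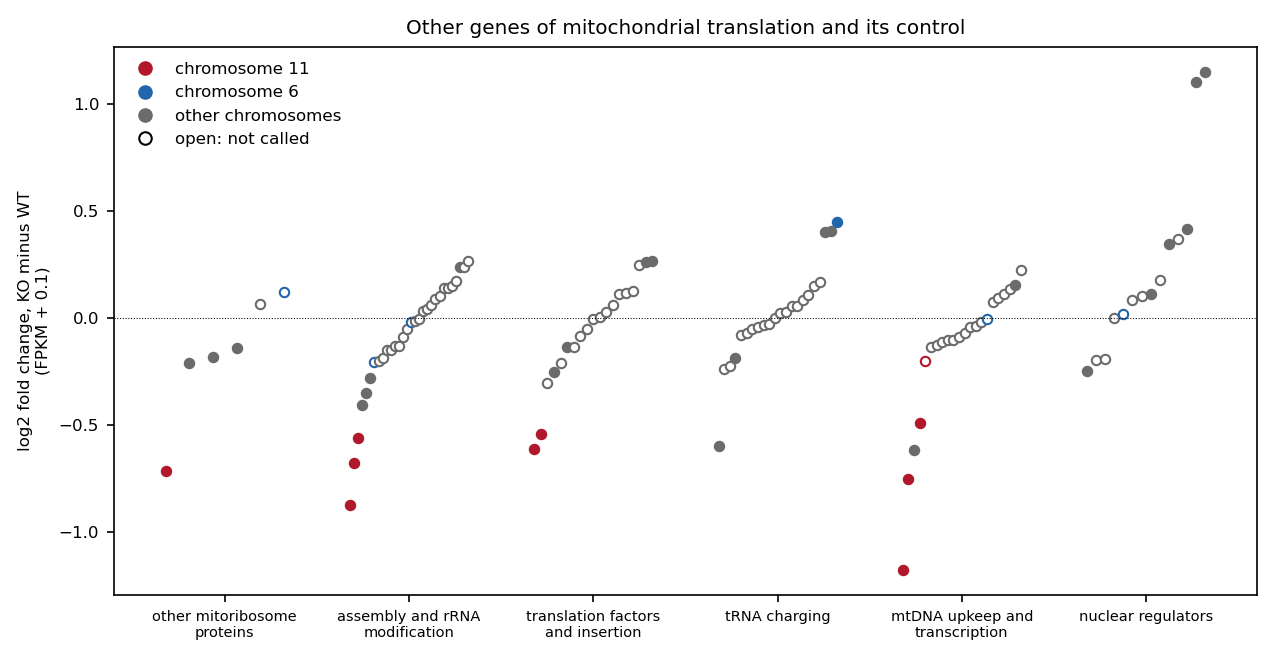
The log2 fold change in KO over WT of the genes of 6 lists around mitochondrial translation, each point a gene, filled where called and ordered within its list. The lowest point of 4 lists is a gene of chromosome 11 (red), down to -1.18 for *Tefm*, and *Myc* and *Tfeb* stand at 1.15 and 1.10 among the regulators.

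A ZFP57 peak of the C57BL/6J list lay within 100 kb of 12 of the 77 genes (15.6%), against 15.9% of the 14569 tested genes with a position, and within 20 kb of 4 (5.19%), against 4.89%. None of the 12 is on chromosome 11, where the median distance of the 10 genes to a peak was 0.525 Mb, against 0.362 Mb for all tested genes of the chromosome. It was 0.447 Mb for the members elsewhere and 0.539 Mb for all tested genes. The peak nearest to a member lies inside *Mrps25*, in an intron, and is not in the list named for the hybrid lines. Its 198 bases are shown on the plus strand of GRCm38, with the hexanucleotide, which occurs in it on 1 occasion, in capitals.
Peak in *Mrps25* (chr6:92178155-92178352): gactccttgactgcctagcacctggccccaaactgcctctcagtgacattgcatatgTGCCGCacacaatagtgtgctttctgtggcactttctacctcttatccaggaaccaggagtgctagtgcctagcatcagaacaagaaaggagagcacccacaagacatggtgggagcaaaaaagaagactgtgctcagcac

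Its gene was among the higher ones (0.39, above). *Mrpl11*, with a peak 4.19 kb away, was at 4.82, 4.96 and 5.06 FPKM in WT and at 4.58 and 4.4 FPKM in KO (-0.14 ± 0.061, adjusted p = 0.124). *Mrps16*, 16.7 kb away, changed by 0.06 (adjusted p = 0.267), and *Mrpl34*, 17.0 kb away, by 0.26 (adjusted p = 0.16). Of the 12, *Mrpl1* (30.3 kb) and *Mrpl47* (67.7 kb) were lower, *Mrps25* and *Mrps2* (71.6 kb) were higher, and *Mrpl11*, *Mrps16*, *Mrpl34*, *Mrpl23* (39.2 kb), *Mrps17* (56.9 kb), *Mrps18c* (58.1 kb), *Mrpl19* (92.8 kb) and *Mrps18b* (97.7 kb) were not called. The peak list holds positions without a score, so the strength of binding could not be compared.

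A gene on the other strand starts close to some of these genes, a trait that was not counted over all genes. Such a start lay within 1000 bp for 30 of the 77, among them *Mrpl46* and *Mrps11*, the only such pair within the 77, which start 42 bp apart on chromosome 7, with changes of 0.02 (adjusted p = 0.839) and 0.14 (adjusted p = 0.184). On chromosome 11, *Mrpl27* starts 66 bp from *Eme1*, which encodes a subunit of a DNA structure nuclease and was at 19.22, 17.97 and 19.25 FPKM in WT and at 13.46 and 12.22 FPKM in KO (-0.55 ± 0.06, adjusted p = 0.00125). *Lrrc46*, 213 bp from *Mrpl10*, was at 0.39, 0.21 and 0.21 FPKM in WT and at 0.18 and 0.13 FPKM in KO (-0.51 ± 0.273, adjusted p = 0.184), and *2610507I01Rik*, 55 bp from *Mrpl55*, was at 1.08 to 1.19 FPKM in WT and at 0.97 and 1.04 FPKM in KO (-0.15 ± 0.116, adjusted p = 0.33). Of the 25 tested partners elsewhere, *Mrpl46* and *Mrps11* included, 1 was lower and 4 were higher, where 18.1% of all tested genes outside chromosome 11 were lower and 20.3% higher. Of the partners of the called members *Mrpl2*, *Mrpl36*, *Mrpl40*, *Mrpl47* and *Mrps5*, none was called.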

How the data were processed

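RNA-seq of 3 WT and 2 ZFP57 KO libraries, from RNA depleted of ribosomal RNA and read as paired ends of 150 bp, was deposited by the authors as FPKM per gene symbol, with 2 decimals, from reads mapped to mm10. The submitters' processing notes name FastQC 0.11.5, Trim Galore 0.2.7, BWA 0.6.2, Picard, MACS2 2.1.0 and STAR 2.5.2 without their roles, and the counting and annotation are not given in the sources used here. ZFP57 peaks were deposited by the authors as positions without a score, called in WT replicates.

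The 14617 genes whose mean reached 0.1 FPKM entered a limma 3.58.1 fit of log2(FPKM + 0.1) in R 4.3.3, by eBayes with trend, and p-values were adjusted over all of them by Benjamini-Hochberg. Such fold changes understate those of low genes. On simulated data for WT against KO with 14617 genes, 200 of them shifted, the fit found 0% of log2 shifts of 0.25, 50.5% of those of 0.5 and 76.5% of those of 1, and it called 0, 11 and 12 of the unshifted genes in these runs and 0 with no gene shifted. In the real data 3254 genes were called lower and 2751 higher. With so many calls the adjustment is less strict than in the simulated runs, so their shares do not give the power of the real fit. At 1 fragment per kb the FPKM was 0.017 to 0.0197, and 92.4 to 95.0% of the values of short genes lay within 0.1 of whole fragments, against 20% by chance. Positions and promoters are from RefSeq GRCm38.p6, with 23192 symbols matched directly and 1096 by a synonym.

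Named genes are *Zfp57*, every member on chromosome 11, the 8 highest and 8 lowest log2 fold changes among members elsewhere, the 4 highest and 4 lowest levels, members with a peak within 100 kb, the *Mrps18* genes, the 2 highest and 2 lowest of each list, and genes that start within 1 kb of a chromosome 11 member on the other strand. The members and lists were chosen with earlier results of these data known. The other libraries of the series were not used here. 1 gene that the rule picks among the lists is not reported here.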

Additional observations from a re-analysis of the deposited data

How the results depend on the processing

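*Zfp57* stayed called in every fit, between -1.94 and -1.75 with a library left out. With each library left out in turn, 17 to 25 of the 77 genes were called, 9 to 10 on chromosome 11, 8 to 15 elsewhere, 8 to 10 Mrps genes and 9 to 15 Mrpl genes. The calls in the lists were then 1 to 2 of the other mitoribosome proteins, 6 to 7 for assembly, 2 to 4 for translation factors, 3 to 5 for tRNA charging, 3 to 4 for mitochondrial DNA and 4 to 6 regulators, and the median of chromosome 11 less that elsewhere was -0.594 to -0.502, against -0.55 with all libraries. Subtracting each chromosome's median brought this difference to -0.016, as it is built to do, and turned *Mrps7* (0.138), *Mrpl12* (0.169), *Mrpl27* (0.201) and *Mrps23* (0.252) above 0. No other called gene named by the rule changed its sign in any fit. The deviations of the WT and KO libraries numbered 1, and of those numbered 2, correlated at -0.068 and -0.036. The deviations of the 2 KO libraries from their mean mirror each other, so these values cannot decide whether equal numbers mark pairs. With the replicate number as a block, 13 genes were called (12 lower and 1 higher) in place of 27, 5 of them elsewhere, 4 Mrps and 9 Mrpl genes, and in the lists 1 other mitoribosome protein, 1 translation factor, 2 genes for tRNA charging and 3 for mitochondrial DNA. Without the trend in eBayes, 9 members elsewhere, 11 Mrpl genes, 1 other mitoribosome protein, 3 genes for tRNA charging and 3 for mitochondrial DNA were called. At an adjusted p under 0.01, 14 members were called, 5 of them elsewhere and 7 of them Mrpl genes, with 1 other mitoribosome protein, 1 translation factor, 3 genes for tRNA charging and 2 for mitochondrial DNA. When a call also needed a log2 change of 0.5 or more in either direction, 5 members remained, 5 on chromosome 11 and 0 elsewhere, 1 Mrps and 4 Mrpl genes, with 1 other mitoribosome protein, 3 assembly genes, 2 translation factors, 1 gene for tRNA charging, 3 for mitochondrial DNA and 2 regulators. The causes of these differences were not tested, other than the stricter rule itself in the last 2 settings. The share of all tested genes called was not counted in these alternative fits. A change in a count can therefore not be read as particular to the members or lists. A window of 20 or 500 kb around ZFP57 peaks held 4 or 40 members. In the last 150 bases of the promoter windows the NRF1 core was found in 4 members and the hexanucleotide in 4. The other pseudocounts, filters and scalings left 23 to 28 members called. Depth limits the low genes most, and with 3 against 2 libraries the spread within KO rests on 2 values.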
